A study of Cyanidioschyzon merolae with 29 samples.

Results

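The fatty acid elongation enzymes of the red microalga *C. merolae* and its cytosolic acetyl-CoA carboxylase (ACCase) were followed at the transcript level in cells exposed to nickel. The group holds 4 loci of the 4984 in the count table, namely 3-ketoacyl-CoA synthase (KCS, *CMD118C*), 3-ketoacyl-CoA reductase (KCR, *CMK172C*), 3-hydroxyacyl-CoA dehydratase (HCD, *CMR006C*) and the cytosolic ACCase (*CMM188C*). They were chosen by locus, as the study names them in its account of lipid metabolism. The study named them from these same libraries, so the direction in which they moved is not independent evidence. All 4 passed the filter on low counts.

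The experiment asked how the transcriptome of strain NIES-3377 changes during long exposure to Ni. Cultures were grown with nickel sulfate at 1 mM or 3 mM and sampled on days 5, 10 and 15, and untreated cultures were sampled on days 0, 5, 10 and 15. All cultures shared the strain, an acidic mineral medium, heat and continuous white light, and no other agent was added. There were 3 libraries in each of the 10 conditions except 1 mM Ni on day 15, which had 2, giving 29 poly(A)-selected RNA-seq libraries. The study describes its replicates as independent, while the same culture labels recur on several days, and the labels do not say whether 1 flask was sampled repeatedly.

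In the endoplasmic reticulum, very-long-chain fatty acids are built by a cycle that adds a pair of carbons per turn. KCS condenses an acyl-CoA with malonyl-CoA, KCR reduces the resulting 3-ketoacyl-CoA, HCD removes water from the 3-hydroxyacyl-CoA, and an enoyl-CoA reductase closes the cycle. The malonyl-CoA comes from cytosolic ACCase, which carboxylates acetyl-CoA, whereas a separate ACCase made of several subunits feeds fatty acid synthesis in the plastid. No gene with a description of enoyl-CoA reductase, elongase or another elongation enzyme was found beside the members (0 genes), so the last step of the cycle is not described here.

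The libraries held 2602444 to 4067107 counts (median 3121668). Transcripts of the chloroplast genome, which marks the cells as an alga, made up 2.10 to 6.82% of the counts. A pair of untreated libraries stood apart from the rest of their groups, culture C3 of day 5 and culture C1 of day 15. Their mean root-mean-square log2 distances to the libraries of their group were 0.745 and 1.01, against a median of 0.401 over all libraries. Results that rest on them are therefore given with and without them, a choice made after seeing the data. Levels are given as CPM, the counts scaled to a common library size with TMM factors, so that a lower level means a smaller share of the counted mRNA. Less of that transcript per cell and more of the others cannot be told apart by these values, and RNA per cell was not measured.

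In the RefSeq annotation of assembly ASM9120v1, the build the study used, KCS lies on chromosome 4 at chr4:303744-305393 with a coding length of 1650 bp, and its description in the count table is 3-ketoacyl-CoA synthase. KCR lies at chr11:478688-479671 (984 bp) and HCD at chr18:16698-17609 (912 bp), and neither has a description in the table, so that both names rest on the study. ACCase lies at chr13:464042-472201, has a coding length of 8160 bp and is described as a multifunctional cytoplasmic enzyme. Of the 912 bp of HCD, 518 bp (chr18:17092-17609) overlap with a non-coding RNA locus, *CMR007T*, that is not among the counted genes. Reads were counted by strand, and the strand of *CMR007T* is not given in the sources used here, so reads from that RNA could be counted as HCD if both lie on the same strand.

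Per kilobase of coding length, the median over the 29 libraries was 247 CPM for KCS and 229 CPM for ACCase, against 124 CPM for KCR and 102 CPM for HCD. These medians run over conditions in which the order differed. At 3 mM Ni on day 10 the means were 334 CPM per kilobase for KCS, 151 for KCR and 178 for HCD, against 114 for ACCase, whereas in the untreated cultures of day 0 they were 134 for KCS, 135 for KCR and 129 for HCD, against 417 for ACCase. Over all libraries, the highest CPM was 4.38 times the lowest for KCS, 1.78 times for KCR, 3.67 times for HCD and 4.99 times for ACCase. KCR was the steadiest of the 4, with a standard deviation of log2 CPM at percentile 11.0 of all tested genes, whereas ACCase was at percentile 88.5, KCS at 72.2 and HCD at 63.1.

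**Figure D1:**
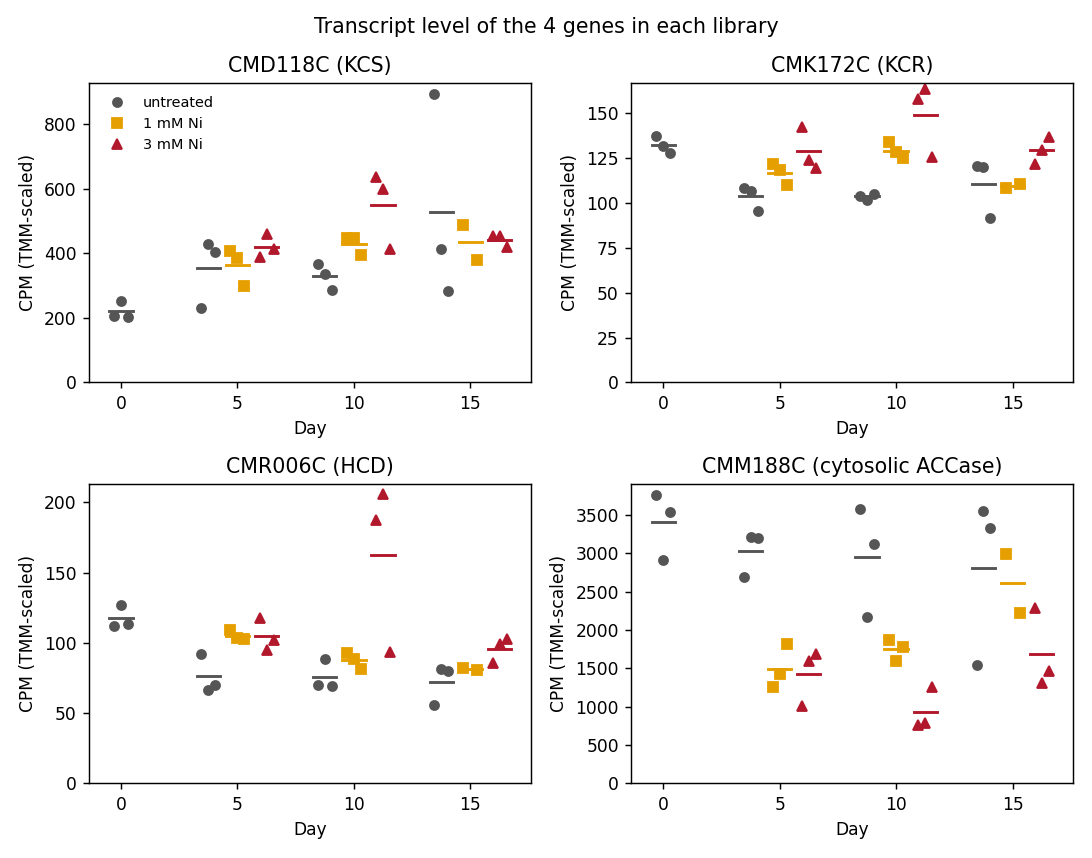
Levels of the 4 transcripts in each of the 29 libraries, in TMM-scaled CPM on the y axis and day of sampling on the x axis. Grey circles are untreated, orange squares 1 mM Ni and red triangles 3 mM Ni libraries, and bars are the means of 2 or 3 libraries. On day 10 every 3 mM Ni library lies above the untreated ones for KCS, KCR and HCD and below them for ACCase, and for HCD 2 of the 3 lie far above the other.

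The members departed furthest from the untreated cultures at 3 mM Ni on day 10. ACCase fell to 0.315 of its untreated level, HCD rose 2.14-fold and KCR rose 1.43-fold, each past the threshold of an adjusted p under 0.05. KCS was 1.67-fold higher with an adjusted p just outside that threshold. Among all 4796 genes tested, 29.2% passed on that day (15.0% higher, 14.2% lower), against 3 of the 4 members. For all 4 the libraries of the treated cultures lay apart from those of the untreated ones, which was the case for 47.2% of all genes.

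ACCase, which supplies the malonyl-CoA, had 754, 790 and 1251 CPM in the 3 mM Ni cultures 3A, 3B and 3C of day 10, against 3572, 2173 and 3125 CPM in the untreated cultures C1, C3 and C5. The highest treated library was well below the lowest untreated one. This gave a log2 fold change of -1.67 (SE 0.30, 95% interval -2.29 to -1.04, edgeR quasi-likelihood adjusted p = 6.29e-04, n = 3 each), the 103rd largest in size among the 4796 genes. With a mean level at percentile 99.4 of all tested genes, ACCase was among the most abundant transcripts of the cells, and its counts ranged from 2267 to 14315 per library.

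HCD, the dehydratase, had 188, 206 and 93.6 CPM in cultures 3A, 3B and 3C at 3 mM Ni, against 69.9, 88.6 and 69.3 CPM in the untreated cultures C1, C3 and C5. Cultures 3A and 3B held the 2 highest values of all 29 libraries, and 3C lay only slightly above the highest untreated value. On the log2 scale HCD rose by 1.10 (SE 0.20, 95% interval 0.68 to 1.51, edgeR adjusted p = 6.75e-04). Without 3C it was 1.37 and without 3B it was 0.89, and the call held in each of the 6 fits that left out 1 library of the comparison.

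KCR, the reductase, had 158, 163 and 125 CPM in cultures 3A, 3B and 3C at 3 mM Ni, against 104, 102 and 105 CPM in the untreated cultures C1, C3 and C5. All treated values were above the narrow untreated range, with 3A and 3B again the 2 highest of all 29 libraries. KCR thus rose by 0.52 on the log2 scale (SE 0.11, edgeR adjusted p = 0.00211), a small change for a gene with little spread between replicates.

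KCS, the condensing enzyme, had 637, 601 and 415 CPM in cultures 3A, 3B and 3C at 3 mM Ni, against 368, 338 and 286 CPM in the untreated cultures C1, C3 and C5. The groups did not overlap, and 3C was once more nearest to the untreated cultures. KCS had a log2 fold change of 0.74 (SE 0.28, 95% interval 0.16 to 1.32), and the edgeR adjusted p of 0.0505 did not pass. KCS passed in the edgeR fit without 3C (0.90, edgeR adjusted p = 0.0238), in that without both untreated libraries that stood apart (0.75, edgeR adjusted p = 0.00119) and by DESeq2's Wald test (0.76, adjusted p = 0.0298), so that its call depends on the processing. Neither library that stood apart belongs to the day 10 comparison. The fit without both gave KCS a smaller SE (0.17, against 0.28) and called 41.8% of all genes, and the fit without 3C called 33.7%.

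**Figure D2:**
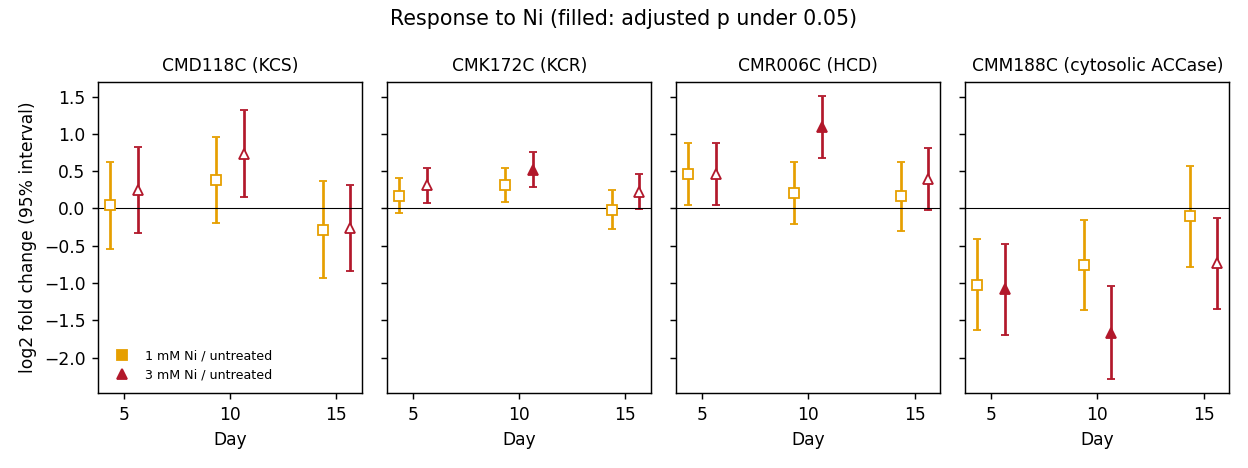
Response of each transcript to Ni by day, as the edgeR log2 fold change against the untreated cultures of the same day with its 95% interval. Orange squares are 1 mM Ni, red triangles 3 mM Ni, and filled symbols have an adjusted p under 0.05. ACCase lies below 0 on each day at both doses, and at 3 mM Ni HCD, KCR and ACCase have their widest departure on day 10.

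On day 5 at 3 mM Ni, ACCase was the 1 member of 4 that passed, when 10.2% of all genes did (5.42% higher, 4.77% lower). It had 1002, 1600 and 1686 CPM in cultures 3C, 3D and 3E, against 2689, 3214 and 3204 CPM in the untreated cultures C3, C4 and C5, with no overlap. Its log2 fold change was -1.09 (SE 0.30, edgeR adjusted p = 0.0208). It was -0.89 with an edgeR adjusted p of 0.140 when 3C was left out, and the adjusted p was 0.0685 without C4 and 0.0756 without C5.

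The elongation enzymes were also higher on average on day 5 at 3 mM Ni, but none passed. KCR had 143, 124 and 120 CPM in cultures 3C, 3D and 3E, against 109, 107 and 95.6 CPM in the untreated cultures C3, C4 and C5, and its log2 fold change was 0.31 (SE 0.11, edgeR adjusted p = 0.0795). HCD had 118, 94.7 and 102 CPM at 3 mM Ni, against 92.2, 66.4 and 69.8 CPM in the untreated cultures, and its log2 fold change was 0.46 (SE 0.20, edgeR adjusted p = 0.148). The treated libraries lay above the untreated ones without overlap for both, and below them for ACCase, that is for 3 of the 4 members, as for 29.7% of all genes.

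For HCD the untreated library C3, which stood apart, was the highest of its group. Without it the log2 fold change of HCD was 0.62 (edgeR adjusted p = 0.0471), in a fit that called 24.1% of all genes. KCR passed when both libraries that stood apart were left out, with 0.36 (edgeR adjusted p = 0.0335), and when 3E was left out, with 0.40 (edgeR adjusted p = 0.04995). With both libraries left out, 33.3% of all genes passed in this comparison. KCS overlapped between the groups, at 390, 460 and 413 CPM at 3 mM Ni against 231, 428 and 404 CPM in the untreated cultures, with a log2 fold change of 0.25 (95% interval -0.33 to 0.83, edgeR adjusted p = 0.597). The untreated value of C3 was the lowest of these 6, and without it the log2 fold change of KCS was 0.02.

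On day 15 at 3 mM Ni none of the 4 members passed (0 with edgeR, DESeq2 and limma-voom, and 1 with an unadjusted edgeR p under 0.05), when 10.3% of all genes did (5.71% higher, 4.59% lower). An unadjusted edgeR p under 0.05 was found for 1295 of all 4796 genes on that day. ACCase had 2288, 1305 and 1464 CPM in cultures 3C, 3D and 3E, against 1541, 3551 and 3333 CPM in the untreated cultures C1, C3 and C4. The untreated library C1, which stood apart, was within the treated range and the other untreated libraries were above it. ACCase had a log2 fold change of -0.74 (95% interval -1.35 to -0.13, edgeR adjusted p = 0.108), and it was -1.03 (edgeR adjusted p = 0.0434) without C1.

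KCS overlapped widely on day 15, at 453, 454 and 419 CPM in the 3 mM Ni cultures, against 894, 413 and 283 CPM in the untreated ones. The untreated range was set by C1, which held the highest KCS value of all 29 libraries and also the lowest HCD value. The log2 fold change of KCS was -0.26 (95% interval -0.84 to 0.32, edgeR adjusted p = 0.585) and 0.34 without C1, so that its direction rests on that library.

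KCR had 122, 129 and 137 CPM in cultures 3C, 3D and 3E on day 15, against 121, 120 and 91.6 CPM in the untreated cultures C1, C3 and C4, with a log2 fold change of 0.22 (edgeR adjusted p = 0.204). HCD had 85.6, 99.0 and 103 CPM at 3 mM Ni, against 56.0, 81.5 and 79.7 CPM in the untreated cultures, with a log2 fold change of 0.40 (edgeR adjusted p = 0.211). For these 2 of the 4 members the treated libraries all lay above the untreated ones, as was so for 26.6% of all genes in either direction.

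The change of the 3 mM response between days was tested as an interaction. From day 10 to day 15 the log2 response of KCS changed by -0.996, of KCR by -0.30, of HCD by -0.70 and of ACCase by 0.93, each towards 0 or past it. None passed (edgeR adjusted p = 0.164, 0.268, 0.173 and 0.201 in that order), nor did any of the 4796 genes (0%, with 1058 genes and 3 of the members at an unadjusted p under 0.05). DESeq2 and limma-voom also called 0 members. The call depended on single libraries, as KCS passed without the untreated C4 of day 15 (-1.30, edgeR adjusted p = 0.0384) and HCD without 3C of day 10 (-0.98, edgeR adjusted p = 0.0112). The change from day 5 to day 10 did not pass for any member (0 genes of 4796, with 254 genes and 1 member, HCD, at an unadjusted p under 0.05), and HCD had 0.64 (95% interval 0.05 to 1.22, edgeR adjusted p = 0.907).

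At 1 mM Ni ACCase was about as low on day 5 as at 3 mM Ni and less low on days 10 and 15, and no member passed on any day by edgeR. The numbers with an unadjusted p under 0.05 were 2, 2 and 0 of 4 on days 5, 10 and 15, against 1128, 420 and 436 of all 4796 genes. DESeq2 called 1 member on day 5, ACCase, and 0 on days 10 and 15, and limma-voom called 0 on each day. Few genes passed at this dose, 0.480% on day 5, 0.146% on day 10 and 0% on day 15.

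ACCase had 1257, 1421 and 1811 CPM in the 1 mM Ni cultures 1A, 1B and 1C of day 5, against 2689, 3214 and 3204 CPM in the untreated cultures C3, C4 and C5. Treated and untreated values lay apart. The difference was -1.02 on the log2 scale (95% interval -1.63 to -0.41, edgeR adjusted p = 0.0874) and passed without C3 (-1.10, edgeR adjusted p = 0.0140) and by DESeq2 (-1.01, adjusted p = 0.0207). Without C3 alone, 1425 of all genes (29.7%) passed in this comparison, against 23 with it.

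On day 10 ACCase had 1869, 1599 and 1778 CPM in the 1 mM Ni cultures 1A, 1B and 1D, against 3572, 2173 and 3125 CPM in the untreated cultures, with a log2 fold change of -0.76 (95% interval -1.37 to -0.15, edgeR adjusted p = 0.436). On day 15 it had 2994 and 2220 CPM in the 1 mM Ni cultures 1C and 1E, within the untreated range of 1541 to 3551 CPM, and the log2 fold change was -0.11 (95% interval -0.79 to 0.57). The ACCase groups thus lay apart on days 5 and 10 and overlapped on day 15.

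Of the elongation enzymes at 1 mM Ni, HCD had 109, 103 and 102 CPM on day 5, against 92.2, 66.4 and 69.8 CPM in the untreated cultures. These values did not overlap, and the log2 fold change was 0.46 (SE 0.20, edgeR adjusted p = 0.183), or 0.62 without C3 (edgeR adjusted p = 0.0392). KCR had 134, 128 and 125 CPM in cultures 1A, 1B and 1D on day 10, against 104, 102 and 105 CPM in the untreated cultures, with a log2 fold change of 0.32 (SE 0.11, edgeR adjusted p = 0.378). KCS had 449, 449 and 394 CPM in the same cultures, against 368, 338 and 286 CPM in the untreated ones, with a log2 fold change of 0.38 (SE 0.28, edgeR adjusted p = 0.734).

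Groups that did not overlap were found for 3 of 4 members on day 5 (KCR, HCD and ACCase), 3 of 4 on day 10 (KCS, KCR and ACCase) and 0 of 4 on day 15, as against 26.0%, 23.2% and 13.6% of all genes. At 1 mM Ni on day 15, with 2 libraries, the log2 fold changes were -0.28 for KCS, -0.01 for KCR and 0.16 for HCD, with 95% intervals of -0.93 to 0.37, -0.28 to 0.25 and -0.31 to 0.63. Each interval spans 0, and that of KCR is the narrowest.

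The doses were compared directly within each day, leaving the untreated cultures out of the difference. HCD on day 10 was the 1 member of 4 that passed, when 8.55% of all genes did. It had 188, 206 and 93.6 CPM in cultures 3A, 3B and 3C at 3 mM Ni, against 92.9, 88.6 and 81.0 CPM in cultures 1A, 1B and 1D at 1 mM Ni, where 3C exceeded the highest 1 mM value by less than the spread within either group. HCD was higher at 3 mM Ni by 0.89 on the log2 scale (SE 0.20, edgeR adjusted p = 0.0133). It did not pass without 3A (0.78, edgeR adjusted p = 0.108), without 3B (0.68, edgeR adjusted p = 0.136) or without 1A (0.94, edgeR adjusted p = 0.0591).

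ACCase on day 10 had 754, 790 and 1251 CPM at 3 mM Ni, against 1869, 1599 and 1778 CPM at 1 mM Ni, with a log2 fold change of -0.91 (SE 0.30, 95% interval -1.52 to -0.30, edgeR adjusted p = 0.0553). It passed without 3C (-1.18, edgeR adjusted p = 0.0159) and by DESeq2 (-0.90, adjusted p = 0.0195). The 2 doses did not overlap for HCD and ACCase, as for 36.2% of all genes. KCS differed by 0.36 (95% interval -0.22 to 0.93) and KCR by 0.20 (95% interval -0.03 to 0.44), with overlapping libraries.

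On day 5 no member passed between the doses (0 of 4 by edgeR, DESeq2 and limma-voom, against 0.0834% of all genes by edgeR, and 0 with an unadjusted p under 0.05, against 626 of all 4796 genes), and libraries overlapped for all 4, while 32.3% of all genes had none that did. The difference was -0.07 for ACCase (95% interval -0.67 to 0.54) and 0.00 for HCD (95% interval -0.41 to 0.41). On day 15 the count was likewise 0 of 4 by all 3 tools, with 0 at an unadjusted p under 0.05 (213 of all 4796 genes) and 0% of all genes called by edgeR. Libraries at 3 mM Ni lay above those at 1 mM Ni for 2 of 4 members, KCR and HCD, where 25.9% of all genes had no overlap, and ACCase differed by -0.63 (95% interval -1.30 to 0.04).

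The untreated cultures themselves changed with time, and not in the same direction for every enzyme. KCS rose, KCR and HCD fell, and ACCase showed no difference that passed. Against day 0, 39.7% of all genes passed on day 5, 40.0% on day 10 and 36.1% on day 15, and 2 of the 4 members passed on each day.

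KCS had 207, 251 and 204 CPM in cultures C1, C2 and C4 on day 0. It had 231, 428 and 404 CPM on day 5, 368, 338 and 286 CPM on day 10, and 894, 413 and 283 CPM on day 15. Every library of days 10 and 15 was above those of day 0, and on day 5 C3 fell within the range of day 0. On day 15 KCS had risen by 1.26 on the log2 scale against day 0 (SE 0.28, edgeR adjusted p = 0.00171). Without the libraries that stood apart, of which C1 had the highest value, the rise was 0.65 (edgeR adjusted p = 0.00827). On day 5 it was 0.68 (edgeR adjusted p = 0.0573), or 0.92 without C3 (edgeR adjusted p = 0.0118), and on day 10 it was 0.58 (edgeR adjusted p = 0.105).

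HCD had 112, 127 and 114 CPM in C1, C2 and C4 on day 0. It had 92.2, 66.4 and 69.8 CPM on day 5, 69.9, 88.6 and 69.3 CPM on day 10 and 56.0, 81.5 and 79.7 CPM on day 15, all below the lowest value of day 0. Against day 0 the log2 fold change was -0.62 on day 5 (edgeR adjusted p = 0.0177), -0.63 on day 10 (edgeR adjusted p = 0.0162) and -0.69 on day 15 (edgeR adjusted p = 0.0110). The call of day 15 was lost without C1 of that day (-0.54, edgeR adjusted p = 0.0600) but not without both libraries that stood apart (-0.55, edgeR adjusted p = 0.0436). Those of days 5 and 10 were each lost in 3 of the 6 fits that left out 1 library (C2 of day 0, or C4 or C5 of day 5 for day 5, with adjusted p up to 0.0840, and C2 of day 0, or C1 or C5 of day 10 for day 10, with adjusted p up to 0.0644).

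KCR had 137, 132 and 128 CPM in C1, C2 and C4 on day 0. It had 109, 107 and 95.6 CPM on day 5, 104, 102 and 105 CPM on day 10 and 121, 120 and 91.6 CPM on day 15, again below all values of day 0. KCR fell by 0.35 on the log2 scale on day 5 (edgeR adjusted p = 0.0171) and by 0.35 on day 10 (edgeR adjusted p = 0.0166), and was at -0.26 on day 15 (edgeR adjusted p = 0.0795). The calls were lost without C1 or C2 of day 0 on both days, without C5 on day 5 and without C1 on day 10 (edgeR adjusted p up to 0.0921 and 0.0741), while the day 15 value passed without C1 of that day (-0.32, edgeR adjusted p = 0.0479).

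ACCase had 3758, 2908 and 3543 CPM in C1, C2 and C4 on day 0. It had 2689, 3214 and 3204 CPM on day 5, 3572, 2173 and 3125 CPM on day 10 and 1541, 3551 and 3333 CPM on day 15, with overlap on each day. Against day 0 ACCase was at -0.16, -0.20 and -0.28 on the log2 scale on days 5, 10 and 15, with 95% intervals of -0.77 to 0.44, -0.81 to 0.40 and -0.88 to 0.33. Libraries did not overlap with day 0 for 2 of 4 members on day 5 (KCR and HCD) and 3 of 4 on days 10 and 15 (KCS, KCR and HCD), against 42.4%, 52.8% and 38.7% of all genes. Between successive untreated days no member passed by edgeR, DESeq2 or limma-voom (0 of 4 from day 5 to day 10, with 0% of all genes by edgeR, and 0 of 4 from day 10 to day 15, with 10.5%). The numbers with an unadjusted p under 0.05 were 0 and 1, against 530 and 1404 of all 4796 genes. The 1 was KCS on day 15 against day 10 (0.68, edgeR adjusted p = 0.113). That value was 0.06 without the libraries that stood apart and 0.98 without C4 of day 15 (edgeR adjusted p = 0.0137).

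For HCD and KCR the untreated decline and the values at 3 mM Ni can be set side by side. At 3 mM Ni on days 5 and 15 HCD averaged 105 ± 11.9 and 95.8 ± 9.00 CPM (SD, n = 3 each), against 117 ± 8.19 CPM on day 0, and KCR averaged 129 ± 12.2 and 129 ± 7.61 CPM, against 132 ± 4.63 CPM. On these 2 days the means at 3 mM Ni thus lay between those of the untreated cultures of the same day and that of day 0. On day 10 the means were 162 ± 60.2 CPM for HCD and 149 ± 20.5 CPM for KCR at 3 mM Ni, above the day 0 means but with the library 3C below all values of day 0 for both.

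Ranked by mean, 3 mM Ni on day 10 was the highest of the 10 conditions for KCS, KCR and HCD and the lowest for ACCase. Neighbours in this order mostly overlapped, in 8 of 9 pairs for KCS, HCD and ACCase and in all 9 pairs for KCR. The breaks lay between the untreated cultures of day 10 and those of day 0 for KCS, between day 0 and 1 mM Ni on day 5 for HCD, and between 1 mM Ni on day 15 and 1 mM Ni on day 10 for ACCase. For ACCase this break separated 5 conditions at the top, the 4 untreated ones and 1 mM Ni on day 15, from the other Ni conditions, although single libraries such as the untreated C1 of day 15 (1541 CPM) and 3C of day 15 at 3 mM Ni (2288 CPM) crossed it.

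**Figure D3:**
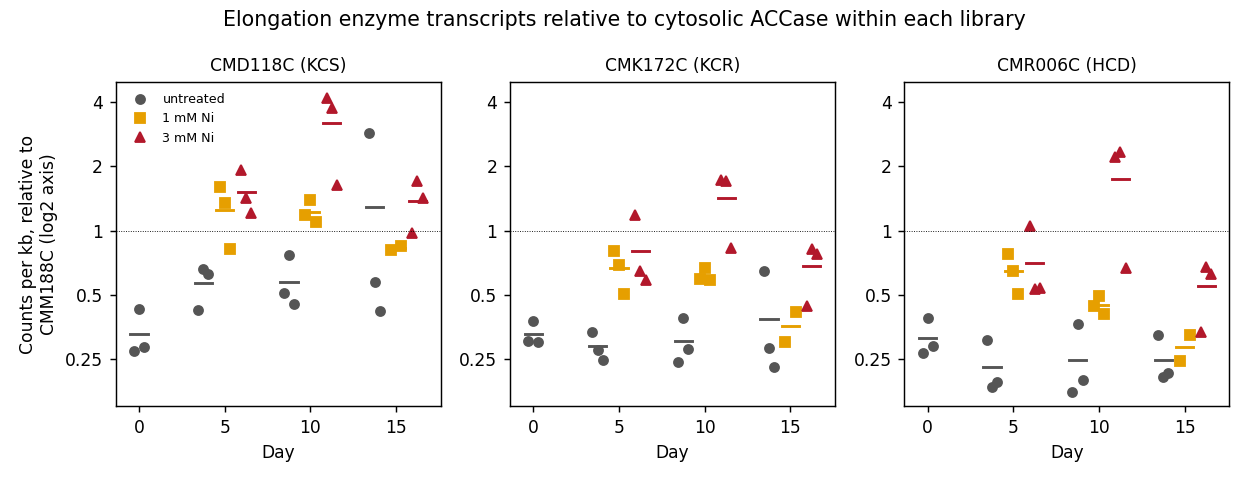
Counts per kilobase of coding length of KCS, KCR and HCD divided by those of ACCase in the same library, on a log2 axis, by day. Symbols are as in the plot of levels and bars are group means. The ratios are highest at 3 mM Ni on day 10, and the untreated C1 of day 15 stands apart for KCS.

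Because KCS uses the product of ACCase, the elongation transcripts were also expressed relative to ACCase within each library, per kilobase of coding length. These ratios follow from the levels above and are given as a description. On day 10 the ratio of KCS to ACCase was 3.19 ± 1.36 at 3 mM Ni, with a range of 1.64 to 4.18, against 0.577 ± 0.168 in the untreated cultures, with a range of 0.453 to 0.768 (SD, n = 3 each). At 1 mM Ni it was 1.22 ± 0.149. The transcript of the condensing enzyme thus outnumbered that of ACCase per kilobase in every Ni-treated library of day 10 and in none of the untreated ones.

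On the same day the ratio of KCR was 1.43 ± 0.517 at 3 mM Ni, against 0.303 ± 0.0764 in the untreated cultures, and that of HCD was 1.74 ± 0.930 against 0.246 ± 0.104. Neither ratio overlapped between the groups. On day 5 the KCS ratio was 1.52 ± 0.366 at 3 mM Ni and 1.26 ± 0.400 at 1 mM Ni, against 0.570 ± 0.126 in the untreated cultures. On day 15 it was 1.37 ± 0.372 at 3 mM Ni, within the untreated range of 0.420 to 2.87, whose upper end was C1. In the untreated cultures of day 0 the KCS ratio was 0.328 ± 0.0863, the KCR ratio 0.326 ± 0.0426 and the HCD ratio 0.315 ± 0.0664, so that the 3 elongation transcripts were near the same level there.

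The other genes of fatty acid metabolism were taken by words in their descriptions and, for a few, by locus, as background to the members. Of these 24 genes, 0 passed at 1 mM Ni on any day by edgeR, DESeq2 or limma-voom, and 7, 3 and 3 had an unadjusted edgeR p under 0.05 on days 5, 10 and 15. Among all 4796 genes tested, 1128, 420 and 436 had such an unadjusted p on these days. Without the untreated C3 of day 5, *CMK291C* (1.66), *CMM286C* (1.497), *CML080C* (-0.78) and AccD (*CMV207C*, -0.69) also passed on day 5 at the lower dose (edgeR adjusted p = 0.00168, 0.00569, 0.0201 and 0.0296 in that order). That fit called 29.7% of all genes. The genes taken by locus, among them AccA, AccD, *CML080C*, *CMA042C* and *CMK291C*, were named by the study from these libraries, so their directions are not independent either.

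Of the 5 other ACCase subunit genes, which belong to the plastid enzyme, 1 fell at 3 mM Ni at both earlier times, and 0 passed on day 15, against the 4.77% and 14.2% of all genes that fell on days 5 and 10 (on day 15, 1 by DESeq2, 0 by limma-voom and 1 with an unadjusted p under 0.05). On days 5 and 10 it was AccD (*CMV207C*), the beta subunit of the carboxyltransferase, encoded in the chloroplast genome. AccD averaged 678 ± 72.4 CPM at 3 mM Ni on day 10, against 1154 ± 127 CPM in the untreated cultures, with a log2 fold change of -0.77 (edgeR adjusted p = 0.0100), lost without 3A (edgeR adjusted p = 0.0579). On day 5 it was -0.997 (edgeR adjusted p = 0.00527). The alpha subunit AccA (*CMV056C*) averaged 50.3 ± 7.24 CPM at 3 mM Ni on day 10, against 79.8 ± 15.0 CPM, with a log2 fold change of -0.66 (edgeR adjusted p = 0.276). It had -0.91 on day 5 and -1.29 on day 15, which did not pass (edgeR adjusted p = 0.200 and 0.0710). On day 15 AccA ranged from 30.0 to 46.8 CPM at 3 mM Ni and from 33.2 to 202 CPM in the untreated cultures. The edgeR adjusted p of that day was 0.718 without the untreated C1, which stood apart, and 0.0114 and 0.0441 without C3 or C4.

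Poly(A) selection captures chloroplast transcripts incompletely. The share of counts on chloroplast genes was 2.79 to 2.95%, 2.91 to 3.33% and 2.65 to 3.15% at 3 mM Ni on days 5, 10 and 15, against 3.84 to 5.75%, 3.77 to 4.73% and 2.27 to 6.82% in the untreated cultures. On days 5 and 10 AccA and AccD were thus lower where this share was lower, whereas on day 15 the share at 3 mM Ni lay within the untreated range. The part of this share in their values was not tested. The median log2 fold change of the ACCase subunits was -0.59, -0.43 and -0.13 at 3 mM Ni on days 5, 10 and 15, against -0.04, -0.02 and -0.04 over all genes.

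**Figure D4:**
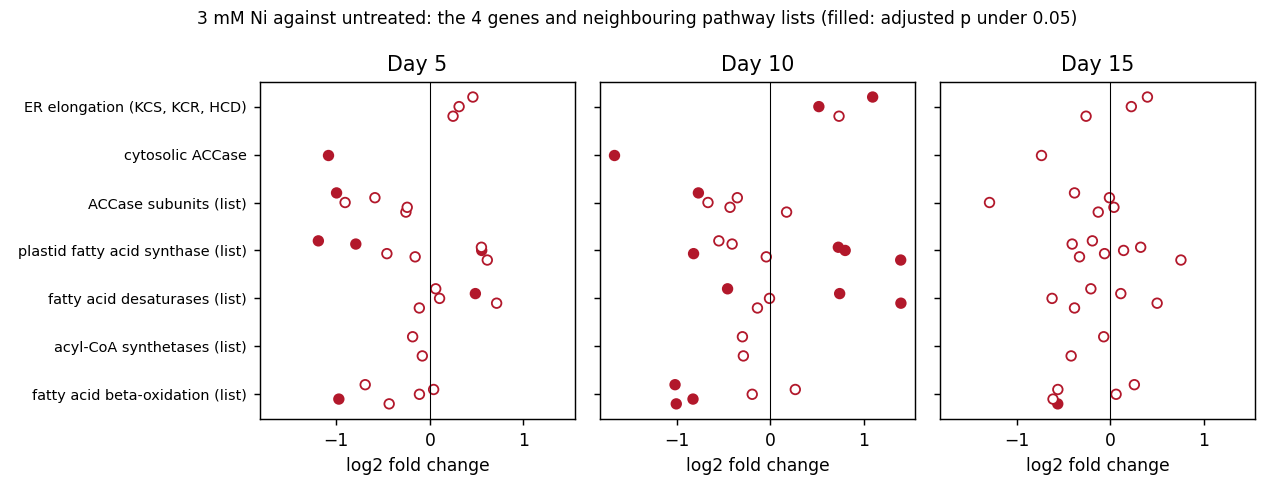
Log2 fold change at 3 mM Ni against the untreated cultures of the same day for the 4 members and for the genes of 5 lists from neighbouring pathways, one point per gene, filled where the edgeR adjusted p is under 0.05. On day 10 ACCase has the lowest value of all genes shown and HCD one of the highest, and the lists other than the acyl-CoA synthetases hold filled points.

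In the list of plastid fatty acid synthase, which builds the chains that the elongation cycle extends, 3 of 7 genes rose and 1 fell at 3 mM Ni on day 10, when 15.0% of all genes rose and 14.2% fell. The chloroplast ketoacyl synthase *CMM286C* had 307 ± 98.3 CPM at 3 mM Ni, against 117 ± 35.9 CPM in the untreated cultures, a log2 fold change of 1.40 (edgeR adjusted p = 0.0126) that did not pass in 3 of 6 fits without 1 library. *CMR500C*, which was put in the list by its locus and is described in the table as a phospholipase A2, had -0.82 (edgeR adjusted p = 0.0134) and also did not pass in 3 of 6. Among the genes that rose was *CMS372C*, at 146 ± 21.6 CPM against 83.5 ± 5.95 CPM in the untreated cultures of day 10. Its description is acyl carrier protein, while the study names it an NADH-ubiquinone oxidoreductase subunit, so its place in this list is uncertain. On day 5 the counts were 1 higher and 2 lower, when 5.42% of all genes rose and 4.77% fell. On day 15 there were 0 (0 by DESeq2 and limma-voom, 1 with an unadjusted p under 0.05), when 5.71% of all genes rose and 4.59% fell. Without the untreated C3 of day 5, *CMM286C* passed on that day (1.47, edgeR adjusted p = 0.00710), in a fit that called 24.1% of all genes.

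Of the 5 genes in the list of desaturases, 2 rose and 1 fell on day 10, against the same shares of all genes. The gene that fell, *CMQ199C* (-0.45, edgeR adjusted p = 0.0243), was put in the list by its locus and is described in the table as an O-acyltransferase, so none of the 4 described as desaturases fell. *CMK291C*, a delta-12 desaturase, had 377 ± 98.1 CPM at 3 mM Ni, against 143 ± 13.3 CPM (log2 fold change 1.40, edgeR adjusted p = 0.00789), and *CMP318C*, described as a sphingolipid desaturase, had 453 ± 63.8 CPM against 271 ± 10.2 CPM (0.74, edgeR adjusted p = 0.00184). On day 5, when 5.42% of all genes rose, 1 desaturase was higher, *CMP318C* (0.49, edgeR adjusted p = 0.0498), a call lost without any 1 of 5 of the 6 libraries compared. Without the untreated C3 of that day, *CMP318C* had 0.41 and did not pass (edgeR adjusted p = 0.0892), whereas *CMK291C* passed with 1.49 (edgeR adjusted p = 0.00352). That fit called 24.1% of all genes. On day 15 none passed (0 by all 3 tools, 1 with an unadjusted p under 0.05). The median of the list was 0.10, -0.01 and -0.21 on days 5, 10 and 15.

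Among 5 genes of beta-oxidation, which breaks acyl-CoA down, the numbers that fell at 3 mM Ni were 1, 3 and 1 on days 5, 10 and 15, where 4.77%, 14.2% and 4.59% of all genes fell, and none rose. The call of day 15, *CMA042C* (-0.56, edgeR adjusted p = 0.0485), was lost in 5 of the 6 fits that left out 1 library. The mitochondrial acyl-CoA dehydrogenase *CML080C* had 95.2 ± 7.54 CPM on day 10, against 192 ± 26.5 CPM in the untreated cultures (-1.02, edgeR adjusted p = 0.00615). On day 5 *CML080C* passed in the fit without the untreated C3 (-0.96, edgeR adjusted p = 0.00687), which called 24.1% of all genes. The acetyltransferase *CMA042C* had 106 ± 23.6 CPM on day 10 against 212 ± 16.8 CPM (-1.003, edgeR adjusted p = 6.38e-04). The list median was -0.44, -0.82 and -0.56. The 2 acyl-CoA synthetase genes, which activate free fatty acids for elongation and other uses, did not pass on any day at 3 mM Ni by edgeR (0, 1 and 1 with an unadjusted p under 0.05, and 1 on day 15 by DESeq2), with medians of -0.13, -0.29 and -0.24.

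Across the 29 libraries, KCR and HCD varied most alike among the members, with a Pearson r of log2 CPM of 0.764, and HCD was the 38th most similar of all genes to KCR. ACCase varied against each elongation enzyme, with r of -0.604 for KCS, -0.664 for KCR and -0.585 for HCD. KCS had r of 0.293 with KCR and -0.01 with HCD. These correlations are descriptions over libraries that share conditions, scaling and culture labels. After subtracting the mean of each condition, r was 0.464 for KCR with HCD, 0.450 for KCS with KCR, -0.154 for KCS with HCD, -0.467 for KCS with ACCase, -0.588 for KCR with ACCase and -0.320 for HCD with ACCase.

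The genes most like each member over the 29 libraries were others than the members themselves. For KCS they were *CMK274C*, a mitochondrial ribosomal protein (r = 0.887), *CMP092C*, which has no description (0.885), and *CME055C*, an FtsH2-type protease (0.875). For KCR they were *CMP354C*, a probable phosphate cotransporter (0.880), *CMN108C*, described as RNA binding (0.877), and *CMP111C*, a phosphatidylethanolamine N-methyltransferase (0.861). For HCD they were *CME128C*, a proteasome alpha subunit (0.929), *CMB025C*, a protoporphyrinogen oxidase (0.8998), and *CMN202C*, a homogentisate phytyltransferase (0.897). For ACCase they were *CMR079C*, similar to a thylakoid lumen rotamase (0.933), *CMM066C*, an alanine aminotransferase (0.929), and *CMS406C*, a pyridoxal phosphate homeostasis protein (0.911).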

How the data were processed

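Poly(A)-selected RNA was sequenced in 29 libraries. The authors trimmed reads (Trimmomatic 0.39), mapped them to ASM9120v1 with Hisat2, dropped optical duplicates (GATK) and assigned them to genes by strand with HTSeq-count. The deposited table holds these raw counts without normalization, and reads with several alignments are by default not counted.

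Conditions and culture labels came from the sample labels, and locus positions from RefSeq, in which 4731 of the 4984 IDs (94.9%) were found. All libraries entered 1 edgeR 4.0.16 quasi-likelihood fit in R 4.3.3 with TMM scaling, filterByExpr (4796 genes kept, 188 left out) and a coefficient per condition. The common dispersion was 0.0419. Benjamini-Hochberg adjustment covered every tested gene, and genes with an adjusted p under 0.05 were called, whatever their fold change. Standard errors and 95% intervals came from the fold change and its F statistic. Likeness used log2 CPM with a prior count of 2. The steps were tested on simulated data. In this fit, p-values set each difference against a spread between libraries that was estimated over all 10 conditions. They treat the libraries as independent.

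The members and gene lists were chosen with earlier results of these data known. Genes named beside the members are AccA, AccD, at most the 2 largest calls per list at 3 mM Ni on day 10 (*CMQ199C* and *CMS372C* were added after their values were seen) and the 3 genes most like each member. Alternatives were DESeq2's size factors, scaling by nuclear genes, filters of 1 count in any library or 10 in all, fits of the compared conditions only, DESeq2 1.42.0, limma-voom (limma 3.58.1) with and without the culture label as a block, and each library left out.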

Additional observations from a re-analysis of the deposited data

How the results depend on the processing

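The calls at 3 mM Ni on day 10 for KCR (*CMK172C*), HCD (*CMR006C*) and ACCase (*CMM188C*) held under each alternative tried and without each library of that comparison. Of 512 member values under the planned settings other than leaving out a library, 504 kept their sign, and the 2 other scalings moved the median log2 fold change of all genes by at most 0.0337 (at most 0.0703 under any setting, with the filter of 10 counts). Where a call changed, the cause was not tested. Fits of the compared conditions alone used fewer libraries to estimate the spread. Over all genes their calls were fewer at 3 mM Ni on day 5 (121 against 489) and more between doses on day 5 (249 against 4).

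KCS (*CMD118C*) at 3 mM Ni on day 10 passed with DESeq2's size factors (0.76), a filter of 10 counts in all libraries (0.77), only the compared conditions (0.74) and DESeq2's Wald test (0.76). With the compared conditions alone, 0 members passed at 3 mM Ni on day 5 (ACCase -1.05), 1 on untreated day 5 against day 0 (KCR -0.40) and 0 on day 15 against day 0 (KCS 1.26, HCD -0.70), KCS passed on day 10 against day 0 (0.56), and between doses on day 10 HCD (0.88) was lost and ACCase (-0.92) passed. DESeq2's Wald test called 1 member at 1 mM Ni on day 5 (ACCase -1.01) and 2 between doses on day 10 (ACCase -0.90). KCR on untreated day 15 against day 0 passed with at least 10 counts in every library (-0.31). The list of desaturases had 0 calls at 3 mM Ni on day 5 under DESeq2's size factors, nuclear scaling and a filter of 1 count, and beta-oxidation had 0 on day 15 with at least 10 counts. Over all genes, DESeq2's Wald test called more than edgeR at 1 mM Ni on days 5 (207 against 23), 10 (32 against 7) and 15 (1 against 0), between doses on days 5 (65 against 4), 10 (627 against 410) and 15 (3 against 0), on untreated day 10 against day 5 (28 against 0) and for the response of day 10 minus day 5 (4 against 0) and day 15 minus day 10 (150 against 0). The compared conditions alone gave 2 calls on day 5 and 76 on day 10 at 1 mM Ni, 121 on day 5 and 13 on day 15 at 3 mM Ni (against 489 and 494), 249 between doses on day 5, and 933, 307 and 0 for untreated day 5 and day 15 against day 0 and day 15 against day 10 (against 1904, 1729 and 504). A filter of 10 counts gave 1 call at 1 mM Ni on day 10.

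With the untreated C3 of day 5 and C1 of day 15 both left out, an alternative chosen after seeing the data, 2 members passed at 1 mM Ni on day 5 (HCD 0.63, ACCase -1.10), 3 at 3 mM Ni on day 5 (KCR 0.36, HCD 0.63 and ACCase), 1 at 3 mM Ni on day 15 (ACCase -1.00205) and 2 between doses on day 10 (ACCase -0.92). KCS passed at 3 mM Ni on day 10 (0.75) and, untreated, on day 5 (0.93) and day 10 (0.60) against day 0, and KCR passed on day 15 against day 0 (-0.32). Over all genes this gave 1957 calls on day 5 and 99 on day 10 at 1 mM Ni, 1595 on day 5 and 303 on day 15 at 3 mM Ni, 265, 1117 and 2 between doses on days 5, 10 and 15, 1112 and 253 for untreated day 10 against day 5 and day 15 against day 10, and 34 for the response of day 10 minus day 5. The same setting called 41.8% of all genes at 3 mM Ni on day 10. For untreated days 5, 10 and 15 against day 0 it called 53.9%, 50.4% and 36.4%.

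The same culture labels recur, but only 2 of 18 pairs of libraries with the same label had deviations from their group means that correlated above 0.1 (median r -0.0407), and the labels were not taken as pairs. With group means of 2 or 3 libraries, these correlations cannot show whether 1 flask was sampled repeatedly. Limma-voom called 2 members between doses on day 10, with ACCase at -0.95 without a block and at -0.95 with the culture label as a replicate block (adjusted p = 0.0342). The replicate block changed no other call of a member relative to limma-voom without it. Over all genes, limma-voom without and with the block gave 11 and 12 calls at 1 mM Ni on day 5, 10 and 10 between doses on day 5 and 2 and 2 on day 15, and the block gave 325 at 3 mM Ni on day 15 and 271 on untreated day 15 against day 10.

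Leaving out each library of a comparison in turn gave 0 to 2 members called at 1 mM Ni on day 5 (HCD 0.37 to 0.62, ACCase -1.18 to -0.91) and 0 to 2 at 3 mM Ni on day 5 (KCR 0.23 to 0.40, HCD 0.37 to 0.62, ACCase -1.19 to -0.89). At 3 mM Ni KCS on day 10 ranged from 0.62 to 0.90, and on day 15 there were 0 to 1 calls (ACCase -1.03 to -0.53). Over all genes, the fits at 1 mM Ni on day 5 called 6 to 1425, and 2 members passed in that with 1425. At 3 mM Ni they called 179 to 1157 on day 5, 642 to 1616 on day 10 and 57 to 843 on day 15. On day 5, 2 members passed in the fits with 411 and 1157 calls. On day 15 ACCase passed in that with 146. Between doses on day 10 there were 0 to 2 calls (HCD 0.68 to 1.17, ACCase -1.18 to -0.78). All genes gave 5 to 876 calls there, and 2 members passed in the fit with 876. Against day 0 the untreated cultures gave 0 to 3 calls on day 5 (KCS 0.53 to 0.92, KCR -0.39 to -0.30, HCD -0.79 to -0.54), 0 to 2 on day 10 (KCR -0.37 to -0.31, HCD -0.76 to -0.56) and 2 on day 15 (KCR -0.32 to -0.14, HCD -0.78 to -0.54). Untreated day 15 against day 10 gave 0 to 1 calls (KCS 0.074 to 0.98), and the response of day 15 minus day 10 gave 0 to 1 (KCS -1.30 to -0.39, HCD -0.98 to -0.49). Calls over all genes were 1296 to 2244, 1506 to 1776 and 1324 to 1770 for untreated days 5, 10 and 15 against day 0. On day 5, 3 members passed in the fit with 2244. Untreated day 15 against day 10 had 0 to 921 such calls, and KCS passed in the fit with 921. The response of day 15 minus day 10 had 0 to 460, and a member passed in the fits with 279 and 460. Among the list genes named, AccD was called at 3 mM Ni on day 5 in all 6 fits without 1 library and on day 10 in 5.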
